A study of Mus musculus with 4 samples.

Results

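The genes described here are 39 mouse genes of the lysosome: its membrane proteins, its peptidases, glycosidases and lipid-handling proteins, subunits of the proton pump that acidifies it, and the transcription factors Tfeb, Tfe3 and Mitf. They were taken by name from the 21755 protein-coding genes that GENCODE release M21 places on the autosomes and X of the mouse assembly mm10. The measurements are DNase-seq, in which the nuclease DNase I cuts accessible chromatin in isolated nuclei, so that regulatory DNA shows as short stretches dense in cuts. The cells were mouse acute myeloid leukemia (AML) cells of strain C57BL/6J, labelled as differentiated in vitro, with sex not collected and age unknown. There were 4 libraries, with 2 technical replicates for each of the 2 biological replicates. Both biological replicates carry the same donor in the labels, and no treatment, genotype, control cell type or time point is named. The sources used here do not name the leukemia's driver or the differentiation protocol.

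Each biological replicate had 1 deposited list of peaks, which are windows of 150 bp with a whole-number score, and 1 list of hotspots, broader regions for which a −log10 q value is given. The replicate 1 lists held 236802 peaks and 202621 hotspots, and the replicate 2 lists held 67564 peaks and 61915 hotspots. The sources used here give no read depth, and the scores of the lists are on scales of their own, with a median of 74 in replicate 1 and 35 in replicate 2. The promoter of a gene means sequence within 1 kb of any of its annotated transcript starts, and a shared peak is a replicate 1 window that overlaps a replicate 2 peak by at least 1 bp. With 1 pooled list per biological replicate there was no group comparison to test, and all values below are descriptive. Among cell type markers, promoters of 9 of 10 myeloid genes and 5 of 6 macrophage genes held a shared peak, beside 58.2% of all protein-coding genes. Csf1r is counted in both of these lists. The same was found for 0 of 6 osteoclast, 1 of 4 B cell, 0 of 4 T cell, 1 of 5 erythroid, 1 of 4 melanocyte, 0 of 4 hepatocyte and 2 of 4 fibroblast genes.

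Lysosomes are acidic compartments in which hydrolases degrade proteins, glycans and lipids delivered by endocytosis, phagocytosis and autophagy. Acidity is kept by the vacuolar ATPase (V-ATPase), a proton pump of many subunits with a membrane sector (V0) and a cytosolic sector (V1). Many lysosomal genes are transcribed together under TFEB and its relatives TFE3 and MITF, basic helix-loop-helix factors that bind the E-box CACGTG. A longer form of the E-box recurs in promoters of lysosomal genes and is known as the CLEAR element (coordinated lysosomal expression and regulation), with the core TCACGTGA. Macrophages and their precursors are rich in lysosomes.

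Every one of the 39 genes had an accessible promoter in both biological replicates. A shared promoter peak was present at 39 of 39 members, against 58.2% of all protein-coding genes. Taken singly, the replicate 1 list had a promoter peak at 39 of 39 members (71.1% of all genes) and the replicate 2 list at 39 of 39 (58.8% of all genes). A promoter hotspot was present in both lists at 39 of 39 members (58.9% of all genes). Promoters rich in CpG dinucleotides are accessible in most cell types, so the members were also split by that property, with a ratio of observed to expected CpG of at least 0.6 around any annotated start counted as CpG-rich. Of the members, 25 of 39 (64.1%) had such a start, against 53.0% of all genes. All 25 CpG-rich members had a shared promoter peak, as did 86.6% of CpG-rich genes. The other 14 members also all had one, against 26.2% of genes without a CpG-rich start. Those 14 were Atp6ap1, Cd68, Ctsc, Ctsh, Ctss, Ctsz, Grn, Gusb, Lipa, Man2b1, Neu1, Ppt1, Smpd1 and Tpp1. Their ratios ran from 0.215 for Cd68 to 0.578 for Atp6ap1, so some lay just below the limit of 0.6. The 14 were not matched by ratio to the other genes below that limit.

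Among accessible promoters, those of the members were mostly of middling strength. For each gene the shared promoter peak with the highest mean rank in both lists was taken as the strongest. In replicate 1 the strongest peaks of the members scored from 118 to 150 with a median of 147, and those of all 12658 genes with a shared promoter peak had a median of 145 and quartiles of 135 and 148. In replicate 2 the members ran from 27 to 101 with a median of 78, against a median of 75 and quartiles of 53 and 89 for those genes. The members thus spread over much of the range of promoters that were accessible at all. Their median percentile among the 12658 genes was 55.8, with 24 members above the 50th percentile, 7 above the 75th and 2 below the 25th. Both scores lay above the all-gene medians in 15 members and both below in 8. Neither count was made for all genes. In bulk chromatin, accessibility in fewer cells and weaker accessibility in each cell cannot be told apart, so a low score does not say which of the cells were open.

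**Figure D1:**
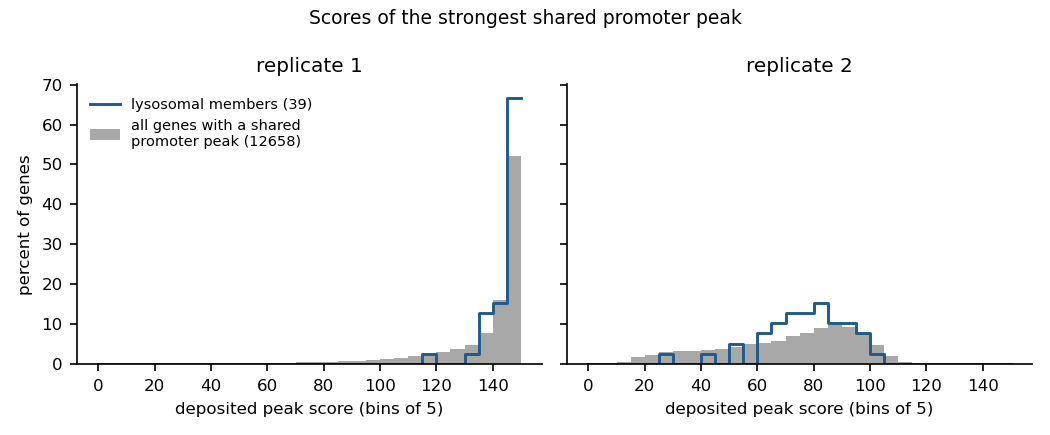
Distribution of the score of the strongest shared promoter peak in each list, with the deposited score on the horizontal axis in bins of 5 and the percent of genes on the vertical axis. Grey bars are the 12658 genes with a shared promoter peak and the blue line is the 39 members, whose medians of 147 and 78 lie close to the all-gene medians of 145 and 75, with replicate 1 crowded against its ceiling of 150.

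Membrane proteins of the lysosome ranged from among the strongest promoters of the set to among the weakest. Npc1, which exports cholesterol from the lysosome, scored 147 in replicate 1 and 101 in replicate 2, the highest replicate 2 value of any member. Cd68, a heavily glycosylated lysosomal protein used as a macrophage marker, scored 150 and 91. The calcium channel gene Mcoln1 scored 142 and 94, and Lamp1, a main constituent of the lysosomal membrane, 148 and 90. Scarb2, the receptor that carries glucocerebrosidase to the lysosome, was close to the all-gene medians at 147 and 78. Lamp2, the partner of Lamp1 and a component of several autophagy routes, was lower at 142 and 53. The tetraspanin gene Cd63 was lower again at 135 and 44, the 19.2 percentile among genes. Its strongest shared peak did not lie at the 5′ end of the gene but at an internal annotated start, with its centre 91 bp downstream of that start. The 7 genes had a median percentile of 67.8.

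Peptidase promoters were the weakest role group by rank, with a median percentile of 41.3 over 10 genes and a highest value of 64.4. Cathepsin S (Ctss), a cysteine peptidase that processes antigen in macrophages and dendritic cells, had the weakest promoter of all members, with 118 in replicate 1 and 27 in replicate 2, the 7.68 percentile. Ctsh, an aminopeptidase, scored 144 and 51, and Ctsb, an abundant cysteine cathepsin, scored 139 and 62. Both genes lie below the all-gene medians of both lists. Ctsz, a carboxypeptidase, scored 146 and 63, Tpp1, which removes tripeptides, 147 and 66, and Ctsc, which activates granule serine proteases of myeloid cells, 146 and 72. The strongest Ctsz peak was centred at -631 bp from its start, the farthest of any member. A second shared peak, centred 48 bp downstream of that start, was nearly as strong with 141 and 61. Ctsa, which protects neuraminidase and beta-galactosidase in a complex, scored 138 and 68. Higher in replicate 2 were the cysteine cathepsin gene Ctsl (148 and 82), the asparaginyl endopeptidase gene Lgmn (145 and 84) and the aspartic protease gene Ctsd (144 and 87).

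The glycosidases, which trim sugars from glycoproteins, glycolipids and glycosaminoglycans, had a median percentile of 52.5 over 8 genes. Neu1, the lysosomal sialidase, stood highest at 150 and 92. Naglu, needed to degrade heparan sulfate, scored 147 and 86, and Gaa, which degrades glycogen, 136 and 87. Gusb, the beta-glucuronidase, scored 144 and 84. The beta-galactosidase gene Glb1 scored 147 and 75, level with the all-gene median of replicate 2. Hexa, a subunit of beta-hexosaminidase, scored 148 and 72, the alpha-galactosidase gene Gla 149 and 69, and the alpha-mannosidase gene Man2b1 146 and 67. These 3 were thus above the all-gene median of 145 in replicate 1, Man2b1 only just, and a little below the all-gene median in replicate 2.

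Genes of lipid breakdown and transport, with 2 precursor proteins, had a median percentile of 55.8 over 7 genes. Npc2, which hands cholesterol to Npc1, had the highest rank of all members, with 150 and 96 and a percentile of 91.6. Asah1, the acid ceramidase, scored 147 and 84, and Psap, the precursor of the saposins that activate sphingolipid hydrolases, 137 and 84. Lipa, the acid lipase, scored 145 and 80, and the acid sphingomyelinase gene Smpd1 147 and 77. Ppt1, which removes palmitate from proteins, scored 133 and 74, and Grn, the progranulin precursor, 148 and 63. The strongest Grn peak lay inside the gene, centred at -374 bp from an internal annotated start at 102432785. At the first Grn start, 102430315, a shared peak centred 75 bp downstream scored 148 and 58. Grn and Ctsz were the 2 members whose strongest peak had its centre more than 200 bp from a start. The other 37 of 39 lay within 200 bp, against 82.2% of all genes with a shared promoter peak.

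Acidification genes had the highest median percentile, 73.4, over only 4 genes. Atp6v0d1, of the V0 sector, scored 147 and 98, and Atp6v1a, the catalytic subunit of V1, 147 and 97. Atp6ap1, an accessory subunit, was at the ceiling of replicate 1 with 150 and scored 78 in replicate 2. Atp6v1h, of V1, was lowest with 141 and 72. The remaining V-ATPase genes, which are not members, showed where this group is incomplete. Of these, 14 of 20 had a shared promoter peak, beside 58.2% of all protein-coding genes. Atp6v0a4 and Atp6v1c2 had one in replicate 1 alone, with scores of 33 and 57. No promoter peak in either list was found at Atp6v0d2, Atp6v1b1, Atp6v1e2 and Atp6v1g3. Those 6 are forms known for restricted tissues, among them Atp6v0d2 in osteoclasts and Atp6v0a4 and Atp6v1b1 in kidney and inner ear. Whether restricted forms lack a shared peak more often was not tested. By contrast Tcirg1, whose product also serves the osteoclast pump, had a shared peak with scores of 138 and 54. Atp6v1g2, a relative of Atp6v1g3, also had one, with 147 and 80.

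**Figure D2:**
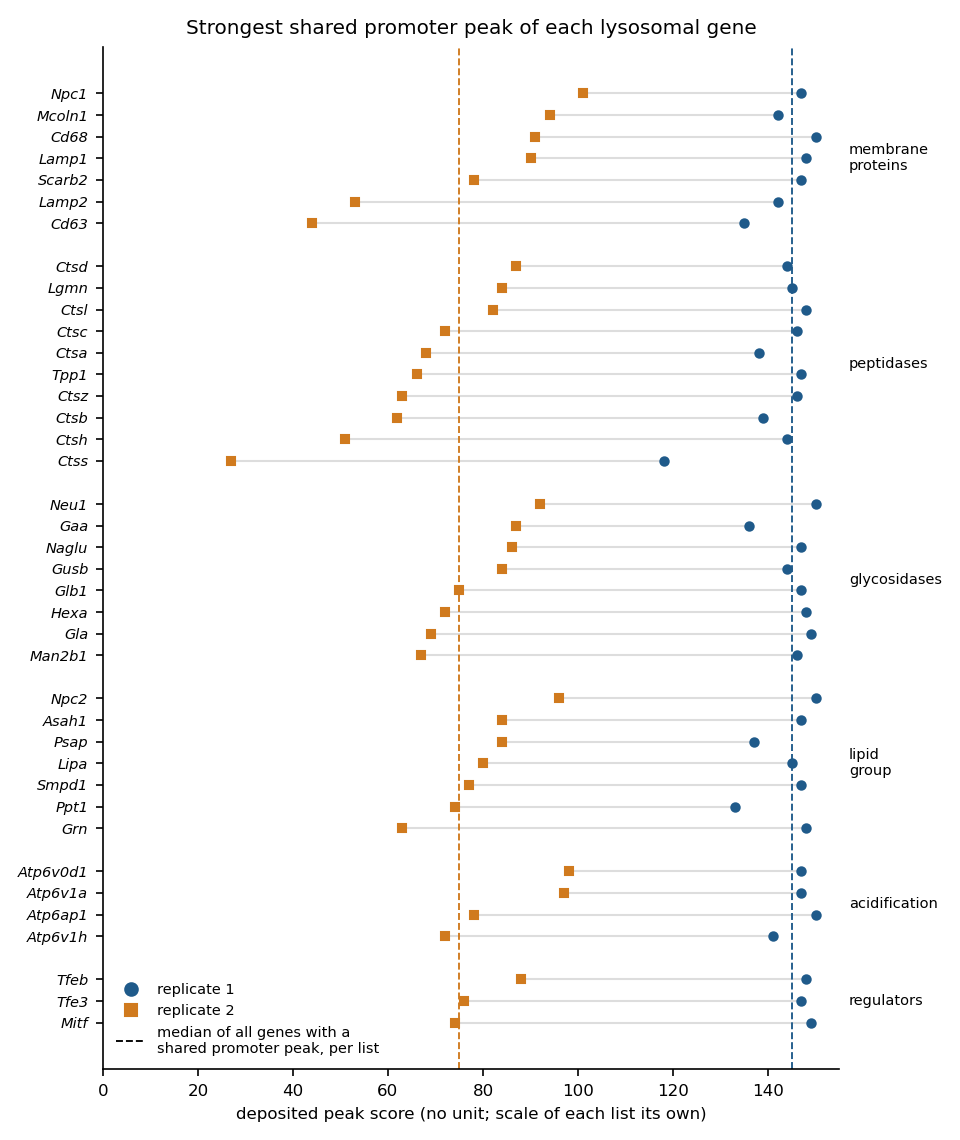
Scores of the strongest shared promoter peak of each of the 39 members, grouped by role, with the deposited score on the horizontal axis. Blue circles are replicate 1 and orange squares replicate 2, and dashed lines are the medians of 145 and 75 over all genes with a shared promoter peak; Ctss lies lowest in both lists, at 118 and 27.

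The hotspots at these promoters were mostly at the top of their scale in both lists, as were those of all genes with a shared promoter peak. Their median width was above that of those genes in replicate 1 and below it in replicate 2. In replicate 1 the promoter hotspots of the members were 672 to 3573 bp wide with a median of 1590 bp, and all 39 reached the ceiling of 100 in −log10 q. In replicate 2 they were 248 to 2057 bp wide with a median of 540 bp, and 34 of 39 reached the ceiling. All genes with a shared promoter peak had median widths of 1460 and 630 bp, with 99.4% and 82.8% at the ceiling. Below the ceiling in replicate 2 were Ctss at 2.37, Cd63 at 3.44, Ctsh at 4.70, Lamp2 at 5.10 and Atp6ap1 at 6.00. The narrowest promoter hotspot of replicate 1 was that of Ctss at 672 bp, and the widest of replicate 2 that of Atp6v1a at 2057 bp.

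Many members had alternative starts with no peak of either list nearby. Annotated starts lying within 500 bp of each other were joined, which gave 106 groups of starts in the 39 genes and more than 1 group in 31 of them. Peaks of both lists lay within 1 kb of 59 groups, of replicate 1 only at 11, and of neither list at 36. Within 500 bp the same counts were 53, 11 and 41, with 1 group near a replicate 2 peak only. Neighbouring groups can lie near the same peak. Starts of other genes were not grouped in this way, so no share over all genes stands beside these counts. Exactly 1 shared promoter peak was found in 24 members. The median was 1 for members and also 1 for all genes with a shared promoter peak. In 6 members the promoter stretch also holds the start of another protein-coding gene, so its peak cannot be assigned to 1 gene. The share of all genes with such a stretch was not counted. The 6 were Ctsa with Neurl2, Gla with Hnrnph2, Hexa with Tmem202, Glb1 with Tmppe, Atp6v1a with Naa50 and Npc2 with Isca2.

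The 3 regulators differed in how many of their starts were accessible. Tfeb, on chromosome 17, had its strongest peak at its first start, 47737030, with 148 in replicate 1 and 88 in replicate 2. The starts between 47737600 and 47737928 had weaker peaks of their own, up to 129 in replicate 1 and 46 in replicate 2. Further into the gene, the start at 47754326 had 143 and 76, and a peak of 145 and 71 was centred at -367 bp from the start at 47769238. Peaks of replicate 1 alone lay within 1 kb of the start at 47759175, with 128 at 715 bp and 111 at 975 bp, and of the start at 47782875, with 67 as the highest. No peak of either list lay within 1 kb of 4 of its 11 groups of starts. The gene was therefore accessible in both lists at 3 separate places where transcripts start, with scores from 143 to 148 and from 71 to 88 at the strongest peak of each.

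Tfe3, on chromosome X, had its strongest peak at the starts between 7762560 and 7762767, with 147 and 76. Around the starts between 7763943 and 7764087 replicate 1 had windows of 125 and 123, and replicate 2 had a single weak window of 27 that overlapped the window of 123. No peak lay within 1 kb of the start at 7769430. Mitf, on chromosome 6, is known for several alternative first exons that are used in different cell types, the most downstream of which gives the melanocyte form. Only its most upstream group of starts, between 97807052 and 97807058, had peaks, with 149 and 74. None was found in either list within 1 kb of the starts at 97929799, at 97940918 or between 97991792 and 97991921. Tfec, the remaining gene of this factor family and not a member, had a shared promoter peak of 140 and 35, the 14.7 percentile among genes. In both lists the peaks of Tfeb, Tfe3 and Mitf at their strongest start thus scored higher than that of Tfec.

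The promoter sequences of the members were searched for 14 short motifs, exact letters on both strands, because the E-box and its extended form are what TFEB, TFE3 and MITF bind. The E-box CACGTG lay in a shared promoter peak of 12 of 39 members (30.8%), against 10.7% of the 12658 genes with such a peak. TCACGTGA, which contains CACGTG and is counted in it, lay there in 6 members (15.4%), against 2.00%. In the strongest shared promoter peak alone, so that each gene is read over 150 bp, CACGTG was found in 11 members (28.2%), against 7.36%, and TCACGTGA in 6 (15.4%), against 1.55%. CLEAR elements were described from promoters of lysosomal genes, so these shares are not independent of how such genes are known. A match of letters is a description of the sequence and does not show that a factor was bound.

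The stretches around all 8 TCACGTGA sites are shown because they carry the longer element in accessible DNA; each is read 5′ to 3′ on the strand of its gene from the GRCm38 (mm10) reference sequence, with the element in capitals.
Atp6v0d1, chr8:105566051-105566078: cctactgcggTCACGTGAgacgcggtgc
Ctsa, chr2:164833750-164833777: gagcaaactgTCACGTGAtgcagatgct
Ctsa, chr2:164833767-164833794: atgcagatgcTCACGTGAccagagctac
Ctsd, chr7:142387909-142387936: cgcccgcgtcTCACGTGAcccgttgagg
Hexa, chr9:59539621-59539648: tccctcccgtTCACGTGAccctccgatt
Lamp1, chr8:13159210-13159237: gaccctcggcTCACGTGAccggcgggcg
Lamp1, chr8:13159237-13159264: gcggcactgcTCACGTGAcaggcgctgc
Mcoln1, chr8:3500463-3500490: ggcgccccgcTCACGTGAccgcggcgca

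These elements lay close to an annotated start, which in Ctsa, Ctsd and Mcoln1 was not the first start of the gene. Distances are from the centre of the E-box to the nearest annotated start, negative upstream. The single Atp6v0d1 element lay at -18 bp and outside annotated exons, inside a peak of 147 and 98. Both Ctsa elements, at -44 and -26 bp from an internal start at 164833807, lay in an annotated exon and share the peak of 138 and 68. The first Ctsa start, 164832873, had a peak of its own of 137 and 52. The Ctsd element lay at -66 bp from the start at 142387857, in a peak of 144 and 87. It was in an annotated exon, inside the gene as counted from its first start at 142388038. In Lamp1 the elements lay downstream, at 62 and 90 bp in an annotated exon, and in Hexa at 94 bp, also in an annotated exon. Mcoln1, the gene of a calcium channel that acts upstream of TFEB in the known pathway, had its element at -18 bp in a peak of 142 and 94. That distance is from the start at 3500495, beyond the first Mcoln1 start at 3500457, and the element lay in an annotated exon.

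Members with the plain E-box added further sites, 18 in all and 17 of them within 200 bp of a start. Of the 18 sites, 10 were upstream and 8 downstream of the nearest start, and 13 lay in an annotated exon. Atp6v1h had a pair, at 12 bp from the start at 5083080 and at -4 bp from the start at 5083110. Neither is the first start of the gene, 5070018, which had no peak of either list within 1 kb. The pair is shown because the sites stand side by side.
Atp6v1h, chr1:5083078-5083105: tcagctgcggtCACGTGcggctgctcac
Atp6v1h, chr1:5083092-5083119: gtgcggctgctCACGTGccagacgctgc
Cd63 had 1 site at 22 bp in its peak of 135 and 44, and Naglu 1 at 12 bp in its peak of 147 and 86. Gaa had 1 at -62 bp (136 and 87) and Glb1 1 at -44 bp (147 and 75). Lamp1 had another E-box at -12 bp, Mcoln1 another at -6 bp from its first start at 3500457, and Hexa another at 144 bp. Thus 5 members (Atp6v1h, Ctsa, Hexa, Lamp1 and Mcoln1) held more than 1. Man2b1 held its only site at 340 bp in a second, weaker peak of 120 and 23. By role, CACGTG was found in 3 of 7 membrane proteins, 2 of 10 peptidases, 5 of 8 glycosidases and 2 of 4 acidification genes. It was in none of the 7 lipid genes and none of the 3 regulators. Promoters with the E-box did not rank higher: the median percentile was 52.5 for members with it and 56 for those without.

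**Figure D3:**
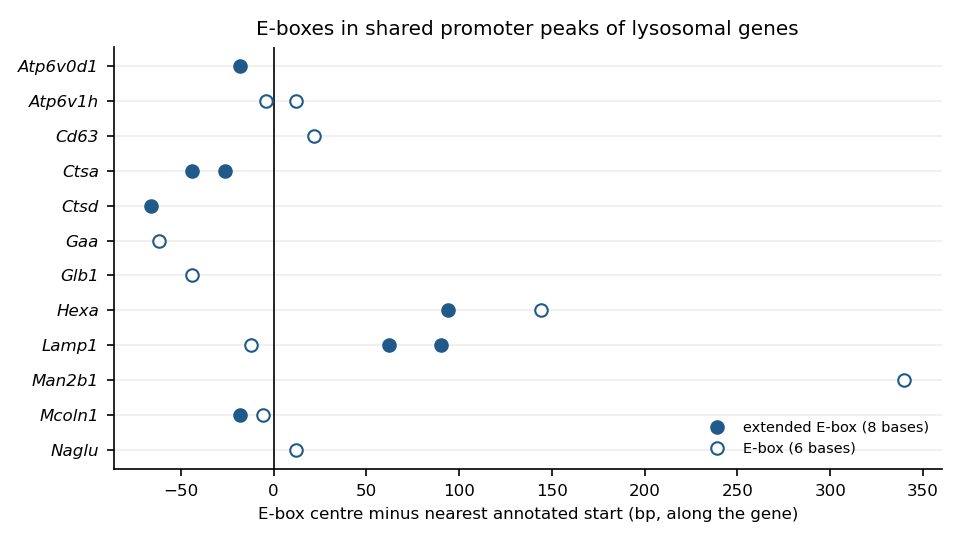
Position of each of the 18 E-boxes in shared promoter peaks of 12 members, as the distance in bp from the nearest annotated start along the gene. Filled circles are the extended form of 8 bases and open circles the plain form of 6 bases; all but the Man2b1 site at 340 bp lie within 200 bp of a start.

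A related element, the M-box TCATGTG, which MITF is known to bind in pigment cell genes, was found in the strongest promoter peak of 5 members (12.8%), against 1.03% of the 12658 genes. Either CACGTG or TCATGTG was present in 15 members (38.5%), against 8.27%. The M-box members included the weakest promoters of the set, Ctss and Cd63. Each stretch is again on the strand of its gene, with the M-box, or its reverse complement, in capitals.
Cd63, chr10:128909783-128909809: gttcccgtgtCACATGAgagagagagg
Ctss, chr3:95526794-95526820: tgtggatgctTCATGTGacaagctccg
Ppt1, chr4:122836230-122836256: gtccccgcggTCATGTGattgctaaga
Scarb2, chr5:92505673-92505699: cgctgcagggCACATGActgaaggcct
Tpp1, chr7:105752202-105752228: tgtgacttatCACATGActacagatca
Tpp1, chr7:105752215-105752241: cagaccatgcTCATGTGacttatcaca
The Ctss site was centred 21 bp downstream of the only annotated start and the Ppt1 site at 1 bp. The Tpp1 pair lay at 0 and 7 bp, each measured from a different start, and the Scarb2 site at -49 bp. Cd63 alone held both elements, the E-box at 22 bp and the M-box at 97 bp. Its peak nonetheless scored low, at 135 and 44.

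Motifs of blood cell factors were also present at some promoters. The PU.1 letters GAGGAAGT, those of the myeloid master regulator encoded by Spi1, were in the strongest peak of 4 members (10.3%), against 2.58%. These members were Ctsc, Ctss, Gla and Gusb, shown with the motif in capitals because Ctss holds it at 2 bp from its start, beside the M-box at 21 bp.
Ctss, chr3:95526774-95526801: atgaaagttcACTTCCTCattgtggatg
Ctsc, chr7:88277924-88277951: tcactaactaACTTCCTCaggccacctc
Gla, chrX:134601136-134601163: gagatgccgcACTTCCTCctcctttgga
Gusb, chr5:130002995-130003022: acttcaagcgACTTCCTCtttctgcaga
The C/EBP letters TTGCNNAA were in 5 members (12.8%), namely Cd68, Gaa, Mitf, Npc2 and Ppt1, against 4.47%. The RUNX letters TGTGGT were in 6 (15.4%), namely Ctsl, Glb1, Lamp1, Mitf, Smpd1 and Tfe3, against 6.48%. AP-1 (TGANTCA) was in 3 members (7.69%), Cd63, Cd68 and Glb1, against 2.57%. Each of these shares rests on 3 to 6 genes.

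Among motifs of widely expressed promoter factors, those of SP/KLF, NFY, YY1 and CTCF had shares close to those of all genes. The SP/KLF letters GGGCGGG were in 38.5% of members and 38.8% of all genes, NFY (CCAATCA) in 10.3% and 8.75%, and YY1 (AAGATGGC) in 2.56% and 3.00%. CTCF (AGGGGGC) was in 12.8% and 11.2%. NRF1 (CGCATGCG) was in 5.13%, against 2.12%, a share that rests on 2 members, Atp6v0d1 and Mcoln1. The ETS letters CCGGAAGT were in the strongest peak of 0 members, against 6.74% of genes, and the CRE letters TGACGTCA in 0, against 2.86%. With every shared promoter peak read, the ETS letters were in 1 member and the CRE letters in 0.

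**Figure D4:**
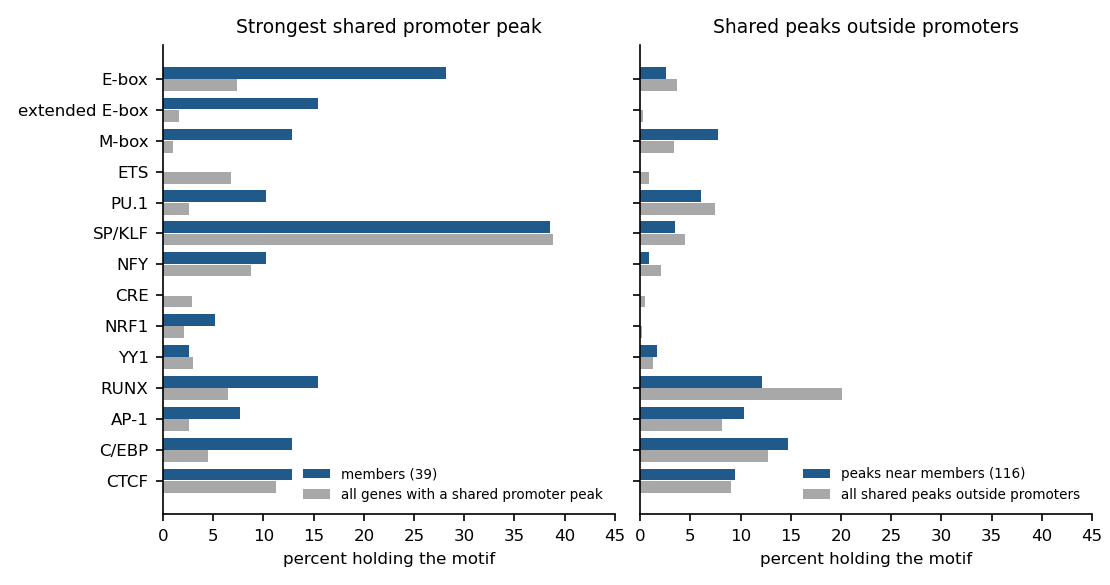
Percent of sequences holding each of the 14 motifs, for the strongest shared promoter peak (left; 39 members in blue, 12658 genes in grey) and for shared peaks outside promoters (right; 116 peaks near members in blue, all 42117 such peaks in grey). At promoters the blue bars of the E-box, its extended form and the M-box stand at 28.2%, 15.4% and 12.8%, above grey bars of 7.36%, 1.55% and 1.03%, and the extended E-box is in none of the 116 peaks outside promoters.

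Beyond promoters, shared peaks in the gene body or within 20 kb to either side were counted when they lay more than 1 kb from every start of every protein-coding gene. At least 1 was found for 33 of 39 members (84.6%), against 68.9% of all genes. The median was 3 per member, with a range of 0 to 9, against 1 for all genes and 2 for genes with a shared promoter peak. The replicate 1 list alone gave 3 to 28 per member with a median of 10, equal to that of genes with a shared promoter peak. Members span a median of 18591 bp, all genes 17414 bp and genes with a shared promoter peak 24140 bp; the part of gene length in these counts was not tested. No shared peak outside promoters was found near Cd68, Ctsa, Ctsc, Man2b1, Asah1 and Atp6v1h. The highest counts were 9 for Mitf, 7 each for Hexa, Scarb2 and Tfeb, and 6 each for Ctsh, Ctss and Lgmn.

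In all, 116 such peaks were found, none of them counted for more than 1 member. Of these, 61 lay in introns, 48 between genes and 7 in exons, and 49 lay inside the member itself. The nearest start of any protein-coding gene was that of the member for 87 of the 116. In the other cases a neighbour was nearer, as for 1 of the Ctss peaks, at chr3:95511916-95512065 with 140 and 43, whose nearest start is that of Ctsk. Nearness does not show which gene a peak acts on.

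**Figure D5:**
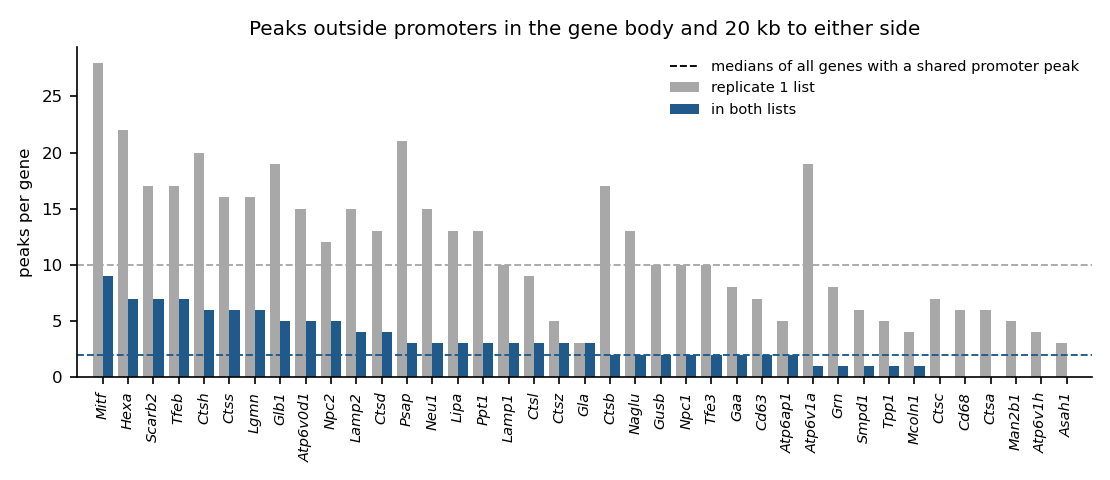
Number of peaks outside promoters in the gene body and 20 kb to either side of each member, ordered by the count in both lists; grey bars are the replicate 1 list and blue bars the peaks in both lists. Dashed lines are the medians of 10 and 2 over all genes with a shared promoter peak; Mitf has the most, with 28 and 9, and 6 members have none in both lists.

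The cathepsin genes Ctss and Ctsh combined weak promoters with many peaks around them. Ctss, lowest at its promoter, had 4 shared peaks between genes, 1 in its own intron at chr3:95529936-95530085 (132 and 42) and 1 in an intron of Hormad1. The strongest by replicate 2 score lay at chr3:95521296-95521445, 5416 bp from the Ctss start, with 133 and 51. That is higher than the 118 and 27 of the Ctss promoter itself. Ctsh had a cluster of 4 overlapping or adjacent windows upstream of its start. The strongest window, at chr9:90043036-90043185 and 11042 bp from the nearest start, scored 147 and 65, above the 144 and 51 of its promoter. Its sequence is shown because it is the strongest element of a gene with a weak promoter and holds a PU.1 motif, in capitals; it is read on the plus strand, which is the strand of Ctsh.
Ctsh upstream peak: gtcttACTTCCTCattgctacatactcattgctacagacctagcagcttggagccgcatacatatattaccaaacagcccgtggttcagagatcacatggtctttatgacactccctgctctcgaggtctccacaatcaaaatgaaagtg

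The strongest peak outside promoters near any member lay upstream of Lgmn, at chr12:102445556-102445705 between genes and 5817 bp from the Lgmn start, with 148 and 82. None of the 14 motifs was in its 150 bp. It came close to the Lgmn promoter, which scored 145 and 84. Near Ctsz an intronic peak at chr2:174437756-174437905 scored 144 and 73 and held a C/EBP motif, and again exceeded the replicate 2 score of 63 at the promoter. Upstream of Psap a peak at chr10:60260716-60260865 scored 144 and 67, and in an intron of Gusb one at chr5:130000896-130001045 scored 144 and 64 and held an E-box. Downstream of Neu1, at chr17:34938116-34938265 between genes and 6327 bp from the Neu1 start, a peak of 144 and 64 held 3 motifs. It is shown on the plus strand, which is that of Neu1, with the AP-1, RUNX and C/EBP letters in capitals in that order.
Neu1 downstream peak: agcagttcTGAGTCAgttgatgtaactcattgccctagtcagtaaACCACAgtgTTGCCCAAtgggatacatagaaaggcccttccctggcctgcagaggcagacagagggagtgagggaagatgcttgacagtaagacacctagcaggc

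Around the regulators the peaks lay mostly in introns. Of the 9 near Mitf, 8 were intronic and 1 lay upstream. The strongest, at chr6:97995876-97996025 with 143 and 48, held a C/EBP motif and lay 4029 bp from the nearest Mitf start, one of the downstream group that had no promoter peak. Tfeb had 4 intronic peaks and 3 just past its 3′ end, of which the strongest was at chr17:47793476-47793625 with 136 and 70. The Hexa peaks included an element at chr9:59536936-59537085 in an intron of Tmem202, with 144 and 44 and a PU.1 motif. The strongest by mean rank, at chr9:59567256-59567405 with 134 and 60, held PU.1 and CTCF motifs and was nearer to the start of Celf6 than to that of Hexa. Scarb2 had 7 peaks, the strongest at chr5:92509056-92509205 with 142 and 37, 2297 bp upstream of its nearest start. All of these replicate 2 scores were below that of the strongest promoter peak of the same gene.

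Outside promoters the motifs differed from those at the starts. CACGTG was in 2.59% of the 116 peaks, against 3.68% of the 42117 shared peaks outside promoters in the genome, and TCACGTGA in 0, against 0.278%. The 3 peaks with CACGTG lay near Ctsl, Gusb and Ppt1. C/EBP was in 14.7%, against 12.7%, RUNX in 12.1%, against 20.1%, AP-1 in 10.3%, against 8.13%, and PU.1 in 6.03%, against 7.48%. The M-box was in 7.76%, against 3.38%, and CTCF in 9.48%, against 9.02%. The difference between promoter and outside peaks in the E-box was not tested.

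Lysosomal genes that are not members gave a like picture. Of 63 further genes of the V-ATPase, of hydrolases, of membrane transport and of sorting, 53 (84.1%) had a shared promoter peak. Among all protein-coding genes the share was 58.2%. Hydrolases numbered 18 of 21, and the remaining 3 had a peak in replicate 1 alone: Acp5 with 119, Ctsf with 87 and Ctsk with 73. Acp5 and Ctsk encode enzymes by which osteoclasts are recognised. Membrane and transport genes numbered 11 of 12, the exception being the channel gene Mcoln3 with 53 in replicate 1 alone. All 10 genes of sorting and regulation had one, including M6pr (149 and 90), the receptor that sorts hydrolases to the lysosome, and Fnip1 (147 and 85), a partner of the TFEB regulator Flcn. The median scores of the 53 were 146 and 78 and their median percentile 56.4. CACGTG lay in a shared promoter peak of 17 of the 53 (32.1%) and TCACGTGA of 10 (18.9%), beside 30.8% and 15.4% of the 39 members. Over all genes with a shared promoter peak the shares were 10.7% and 2.00%.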

How the data were processed

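DNase-seq of 4 AML libraries in 2 biological replicates was analysed from the lists the authors deposited, 1 peak list and 1 hotspot list per biological replicate. Per the file headers of the deposited text notes, both libraries of a replicate share 1 alignment to mm10, so no value per library exists here. The deposited peak score (whole numbers up to 150) and the deposited hotspot −log10 q value (1.3 to a ceiling of 100) were used as the authors gave them. The sources used here do not name the caller or its settings, and give neither the meaning of the score nor the read depth, so no interval that needs depth is printed. Scores were therefore ranked within their own list.

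Repeated entries at the same place were kept once (236754 and 67559 peaks remained). Promoters, shared peaks (61768 replicate 1 windows), peaks outside promoters, CpG content in 1 kb around starts and motifs were computed in Python 3.11.15 with numpy 2.4.6 and scipy 1.17.1, using GENCODE M21 and the GRCm38 sequence, and the code was tested on simulated data, where it recovered 100 of 100 planted promoter peaks. Windows of 1 list can overlap each other. Values in every list were given for the 5 strongest and 5 weakest promoters, the regulators, members with an E-box and those with most peaks outside promoters; other members' scores were added for completeness. The members, gene lists and motifs were chosen with earlier results of these data known. No test was run, because the design holds no groups to compare. Alternatives changed the promoter size, the score threshold, the overlap, the starts, the flank, the motif window and the list used. The motif count in the strongest peak alone and the split by CpG content were added after seeing the data.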

Additional observations from a re-analysis of the deposited data

How the results depend on the processing

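Over 9 results and 58 alternatives, 53 values stayed within 1.5 times the reported one. All 39 members kept a shared promoter peak with promoters of 500 bp or 2.5 kb, with starts of protein-coding transcripts only, with replicate 1 limited to 67421 peaks to match the length of the replicate 2 list, and with either list alone. The count was 38 with peaks at or above the median score of their list and 38 with a minimum overlap of 0.5 of both windows. Members with CACGTG ranged from 8 of 39 (motif within 50 bp of the peak centre) to 14 of 39 (replicate 2 list alone). The shares of all genes with such a promoter peak were 7.98% and 11.5%. CACGTG anywhere within 1 kb of a start, in a peak or not, was found in 27 of 39 members, against 44.6% of all genes. Members with TCACGTGA ranged from 4 to 9. The median number of shared peaks outside promoters was 3; it was 5 with 50 kb to either side (3 for all genes) and 1 in the gene body alone (0 for all genes). Leaving out 1 list moved it between 3 and 10. Ranked over all shared peaks, the median percentile of the members' strongest promoter peak was 90.5 in place of 55.8, beside 88.8 for all genes with a shared promoter peak; this follows from setting promoters against weaker sites. Depth is unknown and the replicate 2 list is the shorter, so closed chromatin and lower depth cannot be told apart where a site is missing from that list.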

Other observations

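Windows within a list can overlap, which affects a few counts near members. At Scarb2 the replicate 2 list held 6 promoter windows, among them an overlapping pair at chr5:92504976-92505125 and chr5:92504996-92505145 with scores of 24 and 25, while the replicate 1 list held 3. Around Ctsh 6 replicate 1 windows overlapped only 4 replicate 2 peaks. Of the 82 replicate 2 promoter peaks of all members, 72 overlapped a replicate 1 window, and of the 134 replicate 1 promoter peaks 69 were shared. Over the whole replicate 1 list, promoter or not, 61768 of 236754 windows were shared. The share for promoter peaks of all genes was not computed.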
